A study of Rattus norvegicus and Mus musculus with 34 samples.

Results

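The tissue that filled a jaw bone defect after its sensory nerve had been cut differed between day 3 and day 14 in 3396 of the 14449 genes tested (23.5%). At day 14 all 34 cell cycle genes listed were lower, as were 14 of 23 glycolysis and hypoxia genes and 8 of 21 macrophage genes. Higher were 9 of 19 lymphocyte, 12 of 19 interferon and 10 of 20 skeletal muscle genes. Among all genes tested, 14.6% were lower and 8.89% were higher. Without 3 libraries that stood apart by their tissue markers, in 2 rats against 3, these counts were 25, 2, 1, 0, 0 and 0. The interferon count was 3 to 6 without any 1 rat other than day 14 rat 2. The muscle count was 1 without day 3 rat 1, 2 or 3. The comparison rests on 8 rats in which the inferior alveolar nerve was transected (sensory nerve-), 4 sampled at day 3 and 4 at day 14, out of 34 samples in the series. They were chosen by their labels alone, and all 20022 genes of the deposited table were considered.

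The series holds 23 rats and a set of cultured mouse macrophage samples, the latter not analysed here. All rats were wild-type (WT) male Sprague-Dawley animals, 6 to 8 weeks old, that received a periodontal bone defect, and healing tissue was collected at day 3, 7 or 14. In the sensory nerve- rats a segment of the inferior alveolar nerve was removed as well, while in the sensory nerve+ rats the nerve was left intact. All animals were given penicillin after surgery. The labels describe the material as mixed cells, and they do not state that each sample is a separate animal, which comes from the study's methods. The question addressed is how the healing tissue moves from the inflammatory to the remodeling phase when sensory innervation is missing.

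The inferior alveolar nerve carries sensory fibers to the lower teeth, the ligament around them and the jaw bone, and its cell bodies lie in the trigeminal ganglion, outside the sampled tissue. Bone defects heal in overlapping phases: a clot and granulation tissue rich in macrophages and dividing cells form first, followed by matrix deposition, vessel growth and new bone, and then by remodeling, in which osteoclasts resorb bone and osteoblasts rebuild it. The messenger RNA of such tissue is a mixture from bone, marrow, blood, immune cells, ligament and any neighboring muscle, tooth or gum in the sample.

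Total counts per library ranged from 14854598 to 18742423. Hemoglobin genes took 2.05% to 12.5% of the counts at day 3 and 0.263% to 50.1% at day 14, with the lowest share in day 14 rat 2 and the highest in day 14 rat 3. The first principal component held 42.3% of the variance and separated the 4 rats of day 3 from the 4 of day 14. 3 libraries stood apart by their tissue markers. Day 3 rat 2 was rich in myelin genes, day 3 rat 3 in tooth enamel genes, and day 14 rat 3 in blood and muscle genes. Day 3 rat 4 also held muscle genes. Day 14 rat 2 had a mean log2 CPM of 2.71 for the erythroid list, against 9.09 to 10.7 in the other day 14 rats. On the first principal component it lay at -14.1, against -60.0 to -83.4 for them. Both of these rats were kept when the 3 libraries were left out, so that alternative did not remove every unusual library. Of genes active in bone, the type I collagen gene Col1a1 stood at 6470.4 to 21984 CPM at day 3 and 9676 to 32286 CPM at day 14. The bone matrix gene Ibsp stood at 143 to 1225 CPM at day 3 and 165 to 3613 CPM at day 14. How much bone each sample held was not measured. Levels are given as CPM, counts per 1000000 after TMM scaling, and changes as log2 of day 14 over day 3.

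With edgeR's quasi-likelihood test and an adjusted p under 0.05, 3396 genes (23.5% of those tested) differed between day 3 and day 14 in the sensory nerve- rats. Of these, 1284 (8.89%) were higher at day 14 and 2112 (14.6%) were lower. A change of more than 2-fold was found for 878 of the higher and 762 of the lower genes. The rats of both days did not overlap for 3941 genes (27.3%), 1330 higher and 2611 lower. The split depended on the scaling: 308 genes were higher and 876 lower when the libraries were scaled by their totals, which moved the median of all genes from -0.05 to -0.42, and 1490 were higher and 1800 lower with RLE size factors. Without the 3 libraries that stood apart, in 2 rats against 3, 252 genes passed the test.

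The genes with the smallest p that rose were led by Per1 (gene ID 287422), a circadian clock gene that glucocorticoids also induce, at 30.2, 26.3, 32.5 and 30.8 CPM at day 3 and 91.3, 87.6, 93.1 and 107 CPM at day 14. All 4 rats of day 14 lay above all 4 of day 3, which the rule for naming these genes required (log2 fold change 1.66 ± 0.12 (SE), adjusted p = 0.000905). The killer cell lectin-like receptor genes Klra17 and Klrc3 both rose, and the cells that made them were not identified. Klra17 ranged over 2.90 to 3.96 CPM at day 3 and 15.6 to 23.8 CPM at day 14 (log2 fold change 2.64 ± 0.20 (SE), adjusted p = 0.00138). Klrc3 ranged over 0.828 to 1.12 CPM at day 3 and 4.91 to 18.4 CPM at day 14 (log2 fold change 3.65 ± 0.42 (SE), adjusted p = 0.00231). Lgals9, which encodes the immune regulatory lectin galectin-9, rose by 1.36 and the MHC class I gene RT1-CE14 by 1.59 on the log2 scale (adjusted p = 0.0021 and 0.00231). Both lost their call under library totals (adjusted p = 0.0719 and 0.0518). Cfb, complement factor B of the alternative pathway, stood at 1.14, 1.79, 1.05 and 1.81 CPM at day 3 and 6.71, 11.96, 12.98 and 10.7 CPM at day 14 (log2 fold change 2.87 ± 0.32 (SE), adjusted p = 0.00221). The Ly49, Klr and RT1 genes belong to families of near-identical copies, so how reads were divided among members is uncertain.

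The genes with the smallest p that fell are active in dividing cells. Cdc20 (gene ID 64515), the activator of the anaphase-promoting complex, stood at 62.4, 50, 52.9 and 49.9 CPM at day 3 and 10.99, 10.7, 9.01 and 10.1 CPM at day 14 (log2 fold change -2.40 ± 0.13 (SE), adjusted p = 0.00055). Anln, which encodes the cleavage furrow protein anillin, stood at 107, 109, 90.1 and 87.4 CPM at day 3 and 10.7, 10.9, 10.6 and 15.5 CPM at day 14 (log2 fold change -3.05 ± 0.17 (SE), adjusted p = 0.00055). In both genes the rats within a day lay close together and the days were far apart, a pattern that choosing by smallest p without overlap favors. The midzone genes Kif23 and Prc1, the kinetochore gene Knl1 and the DNA repair gene Fanci fell by 2.43 ± 0.15, 2.12 ± 0.15, 2.10 ± 0.14 and 1.92 ± 0.13 on the log2 scale (SE), each with an adjusted p of at most 0.000905.

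**Figure D1:**
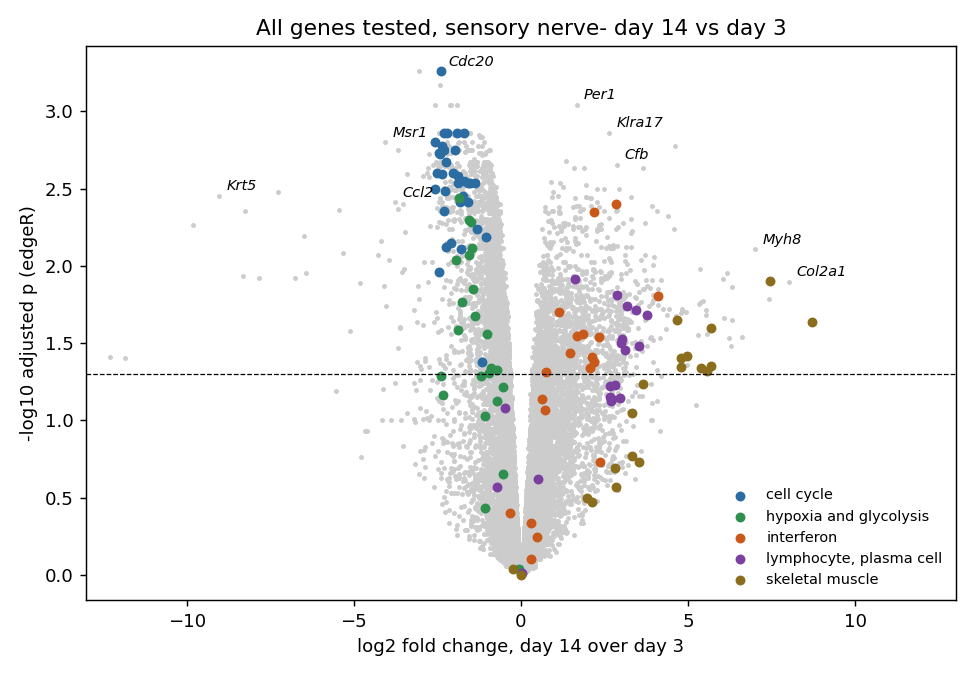
Each point is 1 of the 14449 genes tested in the sensory nerve- rats, with its log2 fold change (day 14 over day 3) on the x axis and the negative log10 of its edgeR adjusted p on the y axis. The dashed line marks an adjusted p of 0.05. The 34 cell cycle genes (blue) form a tight cloud on the left above the line, with Cdc20 at the top, while interferon, lymphocyte and muscle genes lie mostly on the right.

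Proliferation genes fell together. All 34 of the 34 cell cycle genes listed fell, by 1.04 to 2.58 on the log2 scale, with a median of -2.07 against -0.05 for all genes tested. The rats of both days did not overlap for 33 of the 34, against 27.3% of all genes tested. Mki67, which encodes the proliferation antigen Ki-67, stood at 214, 201, 148 and 144 CPM at day 3 and 57.5, 39.8, 40.7 and 41.6 CPM at day 14 (log2 fold change -1.98 ± 0.20 (SE), adjusted p = 0.00179). Top2a, the topoisomerase of dividing cells, stood at 172, 148, 153 and 115 CPM at day 3 and 44.3, 34.3, 16.3 and 28.03 CPM at day 14 (log2 fold change -2.26 ± 0.30 (SE), adjusted p = 0.00328). Every rat of day 3 was above every rat of day 14 in both genes. Kif11, the motor of the bipolar spindle, fell from 47.7 to 70.1 to 9.11 to 14.76 CPM and Rrm2, which supplies deoxynucleotides for DNA synthesis, from 69.7 to 151 to 8.12 to 35.8 CPM (log2 -2.31 ± 0.19 and -2.45 ± 0.47, SE). In tissue that mixes cell types, fewer cells of a type and less RNA per cell cannot be told apart. The count remained at 33 or 34 without any 1 rat and was 25 without the 3 libraries that stood apart.

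**Figure D2:**
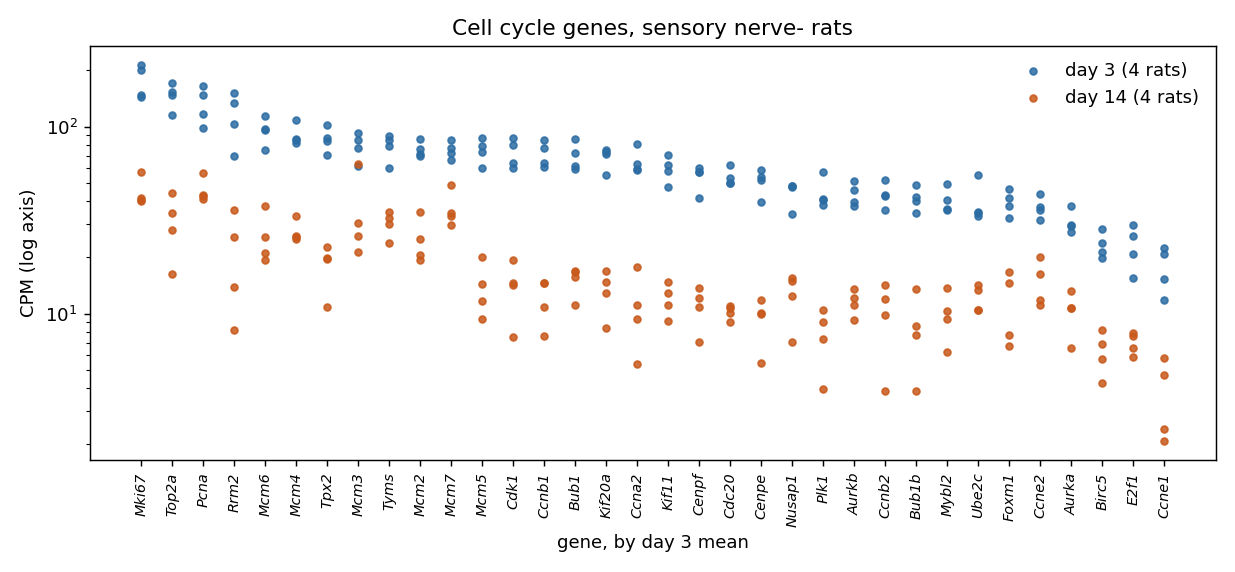
CPM (log axis) of the 34 cell cycle genes in each sensory nerve- rat, with 4 points for day 3 in blue and 4 for day 14 in orange, ordered by the day 3 mean. The day 3 points lie above the day 14 points for 33 of the 34 genes.

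Promoters are shown for Cdc20, a member, and for Kif23, which is not on the list but fell as given above, because many of the list's members carry the same short elements. Of the 14449 genes tested, 11680 had a promoter window in the RefSeq table for the assembly GRCr8, which spans 250 bases before to 50 bases after the start. The cell cycle element CHR was searched as TTTGAA and the CCAAT box as CCAAT, on both strands. CHR letters were found in 11 of 25 cell cycle promoters (44%), in 18.1% of all 27457 promoters and in 12.2% of those of the genes tested. CCAAT letters were found in 18 of the 25 (72%), against 37.7% of all promoters and 37.6% of the tested ones, and both elements occurred together in 9 of 25 (36%) against 4.94% of the tested. The 150 bases before the start of Cdc20 (chr5:137255800-137255949, minus strand) and Kif23 (chr8:71320585-71320734, minus strand) are given 5′ to 3′, with CHR and CCAAT matches on either strand in capitals.
Cdc20: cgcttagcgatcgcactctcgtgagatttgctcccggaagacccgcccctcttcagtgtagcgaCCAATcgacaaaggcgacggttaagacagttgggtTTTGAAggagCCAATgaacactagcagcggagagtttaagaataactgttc
Kif23: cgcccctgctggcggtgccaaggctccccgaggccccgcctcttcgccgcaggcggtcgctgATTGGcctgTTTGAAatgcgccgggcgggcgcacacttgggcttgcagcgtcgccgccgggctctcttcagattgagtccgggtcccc
In Cdc20 the CHR letters began 51 bases before the start and CCAAT letters lay on both sides of them, 86 and 41 bases before it. Kif23 held the CCAAT box in its reverse orientation 88 bases and the CHR letters 79 bases before the start. A match is a description of letters, and binding was not measured.

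Genes of glycolysis and the hypoxia response also fell together. Of 23 members tested, 14 fell and none rose (0 of 23), against 14.6% of all genes tested lower, with a median of -1.37. For 18 members the rats did not overlap between days, against 27.3% of all genes tested. Ldha, which converts pyruvate to lactate, stood at 893, 1062, 613 and 1231 CPM at day 3 and 331, 299.6, 336 and 388 CPM at day 14 (log2 fold change -1.49 ± 0.23 (SE), adjusted p = 0.00517). The glycolytic enzymes Eno1 and Pgam1 fell by 1.87 ± 0.26 and 1.55 ± 0.24 on the log2 scale (SE, adjusted p = 0.00365 and 0.00506). The glucose transporter gene Slc2a1 stood at 56.3, 67.6, 62.4 and 166 CPM at day 3 and 18.4, 16.8, 16.5 and 44.3 CPM at day 14 (log2 fold change -1.88 ± 0.47 (SE), adjusted p = 0.0261), and rat 4 was the highest on each day. Hexokinase 2, Hk2, ranged over 22.97 to 53.5 CPM at day 3 and 8.39 to 22.7 CPM at day 14 without overlap but missed the threshold (-1.20 (log2, adjusted p = 0.0516)). The count of 14 was 7 without day 3 rat 1, 8 without day 3 rat 4 or day 14 rat 1, 17 under library totals, and 2 without the 3 libraries that stood apart. Slc2a1 lost its call without day 3 rat 1 or 4 or day 14 rat 1 or 3 (adjusted p = 0.0508 to 0.0674).

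The core of the hypoxia response element, searched as ACGTG on both strands, occurred in 10 of 20 promoters of the glycolysis list (50%), in 33.6% of the promoters of all genes that fell, in 17.0% of those of genes that rose and in 24.6% of the tested ones. The 150 bases before the start of Ldha (chr1:106507942-106508091, plus strand) are shown because they hold 3 such matches, of which the first pair overlap in a palindrome.
Ldha: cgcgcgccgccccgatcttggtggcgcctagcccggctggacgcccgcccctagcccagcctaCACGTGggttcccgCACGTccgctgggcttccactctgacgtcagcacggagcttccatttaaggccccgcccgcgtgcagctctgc

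Few oxidative phosphorylation genes passed the test. Of 20 tested, 1 rose and 2 fell, against 8.89% of all genes tested higher and 14.6% lower. The median was -0.30, or -0.67 under library totals. The ATP synthase subunit gene Atp5f1a fell by 0.65 ± 0.16 and the complex III gene Uqcrc1 by 0.51 ± 0.13 (log2, SE), while the complex I gene Ndufa1 rose by 1.12 ± 0.33, from 24 to 28.3 to 26.3 to 90.1 CPM. The widest value, 3.92 (log2, adjusted p = 0.0987), belonged to Cox6a2, the muscle form of a complex IV subunit, which was named after its values were seen. Ndufa4, a gene of complex IV, lay at 67.3 to 86.8 CPM at day 3 and 61.7 to 85.8 CPM at day 14 (adjusted p = 0.902). None of the 19 ribosomal protein genes passed the test (0 of 19, median 0.03, or -0.34 under library totals), and Rpl3 ranged over 953 to 1117 CPM at day 3 and 738 to 1069 CPM at day 14. Ndufa1 lost its call without any 1 rat other than day 14 rat 2 (adjusted p = 0.0675 to 0.101). Uqcrc1 lost it without any 1 rat other than day 3 rat 3 or day 14 rat 2 or 3 (adjusted p = 0.0611 to 0.154). Atp5f1a lost it without day 3 rat 1 or 4 or day 14 rat 4 (adjusted p = 0.057 to 0.115).

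Macrophage genes split. Of 21 tested, 8 fell and 1 rose, against 14.6% of all genes tested lower and 8.89% higher, with a median of -0.66. Msr1, the scavenger receptor of macrophages, stood at 101, 129, 116 and 236 CPM at day 3 and 9.59, 12.3, 5.35 and 7.53 CPM at day 14 (log2 fold change -4.05 ± 0.37 (SE), adjusted p = 0.00159), more than 10-fold apart in the day means of 145 and 8.69 CPM. Gpnmb, a glycoprotein of lipid-laden macrophages and osteoclasts, ranged over 2461 to 3909 CPM at day 3 and 549.5 to 1012 CPM at day 14 (log2 fold change -1.91 ± 0.28 (SE), adjusted p = 0.00446). Cd14, the lipopolysaccharide co-receptor, fell by 1.69 ± 0.34 on the log2 scale (SE, adjusted p = 0.0124). Arg1, which encodes arginase 1 and was named after its values were seen, ranged over 44.6 to 285 CPM at day 3 and 1.20 to 9.93 CPM at day 14, with day 3 rat 4 far above the others (log2 fold change -4.81 ± 0.97 (SE), adjusted p = 0.0129). The lineage genes Cd68 and Csf1r did not pass: Cd68 ranged over 198 to 390.0 CPM at day 3 and 90.7 to 302 CPM at day 14 (-0.57 (log2, adjusted p = 0.307)) and Csf1r over 254 to 636 CPM at day 3 and 263 to 591 CPM at day 14 (adjusted p = 0.934). The count of 8 fell to 5 or 4 without 1 of 5 rats (day 3 rats 1, 2 and 4, day 14 rats 1 and 4) and to 1 without the 3 libraries that stood apart.

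Several lysosomal enzyme genes fell as well. Of 18 cathepsin and lysosome genes, 7 fell and 1 rose (median -0.62). Lgmn, the asparaginyl protease legumain, stood at 726, 972, 746 and 1434 CPM at day 3 and 224, 281, 172 and 194 CPM at day 14 (log2 fold change -2.15 ± 0.28 (SE), adjusted p = 0.00311), and Ctsl at 673 to 1969.9 CPM at day 3 and 133 to 279 CPM at day 14 (log2 fold change -2.51 ± 0.40 (SE), adjusted p = 0.00558). Ctsb and Ctsa, at -0.95 (log2, adjusted p = 0.0667) and -0.55 (log2, adjusted p = 0.111), missed the threshold. The member that rose was Ctsk, the collagen-cleaving cathepsin of osteoclasts. Among 22 matrix proteases and their inhibitors 2 rose and 3 fell, near the shares of all genes tested (8.89% higher, 14.6% lower). Plau, the urokinase gene, dropped from 188 to 330.2 to 37.7 to 82.7 CPM (log2 fold change -2.22 ± 0.30 (SE), adjusted p = 0.00357). Mmp2 lay at 300.1 to 812 CPM at day 3 and 289 to 688 CPM at day 14 (adjusted p = 0.9), Mmp3 at 2.39 to 6.28 CPM at day 3 and 0.369 to 4.62 CPM at day 14 (-0.61 (log2, adjusted p = 0.556)), and Mmp1 had at most 3 counts in any library and was not tested.

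The acute inflammation list gave values in both directions. Of 22 tested, 4 fell and 1 rose, against 8.89% of all genes tested higher and 14.6% lower, with a median of -0.58. Ccl2, the chemokine that draws monocytes, stood at 51.02, 102, 89.3 and 111 CPM at day 3 and 2.29, 10.5, 9.51 and 3.52 CPM at day 14 (log2 fold change -3.77 ± 0.53 (SE), adjusted p = 0.00388). Il18 fell by 1.42 ± 0.32 (log2, SE, adjusted p = 0.0175). Il1b, the gene of the cytokine interleukin 1 beta, was higher at day 14, at 26.4, 7.01, 8.11 and 46.5 CPM at day 3 and 189.8, 47.05, 85.1 and 250.2 CPM at day 14 (log2 fold change 2.70 ± 0.76 (SE), adjusted p = 0.037), although its lowest day 14 rat nearly met the highest of day 3. Its call was lost without any 1 rat other than day 3 rat 4 or day 14 rat 2 (adjusted p = 0.055 to 0.0895). Il18 lost it without day 14 rat 4 (adjusted p = 0.0501). Tnf ranged over 2.62 to 7.66 CPM at day 3 and 0.695 to 3.44 CPM at day 14 (-1.43 (log2, adjusted p = 0.107)) and Il6 over 1.09 to 2.004 CPM at day 3 and 0.221 to 9.71 CPM at day 14, with day 14 rat 3 alone above 3 CPM (adjusted p = 0.6).

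Neutrophil genes varied from rat to rat. Of 19 tested, 3 rose and none fell (0 of 19), against 8.89% of all genes tested higher and 14.6% lower. The median was 1.74. The formyl peptide receptor gene Fpr2 stood at 3.89, 0.610, 0.480 and 0.585 CPM at day 3 and 13.4, 5.81, 18.2 and 14.6 CPM at day 14 (log2 fold change 3.22 ± 0.78 (SE), adjusted p = 0.0225) and the chemokine receptor gene Cxcr2 ranged over 1.96 to 6.48 CPM at day 3 and 3.67 to 146 CPM at day 14 (log2 fold change 3.85 ± 1.01 (SE), adjusted p = 0.0291). The calprotectin genes S100a8 and S100a9 overlapped: S100a9 stood at 383, 14.7, 17.1 and 58.8 CPM at day 3 and 462, 46.6, 309 and 2143 CPM at day 14 (log2 fold change 2.64 ± 1.38 (SE), adjusted p = 0.191), and S100a8 had 2.13 (log2, adjusted p = 0.26). Day 3 rat 1 held more of both than day 14 rat 2. Of 7 mast cell genes 3 rose, with the carboxypeptidase gene Cpa3 at 0.778, 0.305, 0 and 0.146 CPM at day 3 and 12.5, 29.8, 4.46 and 2.24 CPM at day 14 (log2 fold change 5.32 ± 1.18 (SE), adjusted p = 0.0178) and the chymase gene Cma1 at 5.44 ± 1.19 (log2, SE). The receptor gene Kit, which other cell types share, ranged over 6.98 to 60.7 CPM at day 3 and 7.67 to 16.2 CPM at day 14 (adjusted p = 0.303). Cxcr2 lost its call without any 1 rat other than day 14 rat 1, 2 or 3 (adjusted p = 0.0584 to 0.0794). Fpr2 lost it without day 3 rat 2 or 4 or day 14 rat 3 or 4 (adjusted p = 0.0521 to 0.0606). Cpa3 lost it without day 3 rat 2 (adjusted p = 0.0524). Cma1 lost it without day 3 rat 2 (adjusted p = 0.0514).

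Part of the lymphocyte genes rose. Of 19 members tested, 9 rose and none fell (0 of 19), against 8.89% of all genes tested higher, with a median of 2.81. Cd3e, a chain of the T cell receptor complex, stood at 4.61, 2.96, 1.31 and 8.20 CPM at day 3 and 90.6, 8.59, 51.8 and 34.2 CPM at day 14 (log2 fold change 3.44 ± 0.79 (SE), adjusted p = 0.0192), and its partner Cd3d changed by 3.19 (log2, adjusted p = 0.0183). Lck, the kinase that starts T cell receptor signaling, stood at 11.8, 7.97, 5.36 and 14.2 CPM at day 3 and 144, 17.1, 69.9 and 60.7 CPM at day 14 (log2 fold change 2.89 ± 0.61 (SE), adjusted p = 0.0154), and the co-receptor gene Cd4 at 55.2 to 127 CPM at day 3 and 188 to 432 CPM at day 14 (log2 fold change 1.63 ± 0.32 (SE), adjusted p = 0.0122). In Cd3e, Cd3d and Lck day 14 rat 2 was the lowest of its day, just above day 3. That rat also had the least hemoglobin, 0.263% of its counts, and the part of blood or marrow in the difference was not tested. The count was 14 without day 14 rat 2, 2 to 8 without any other 1 rat (2 without day 3 rat 2) and 0 without the 3 libraries that stood apart. Cd3e lost its call without day 3 rat 1 or 2 (adjusted p = 0.0565 to 0.0567). Cd3d lost it without day 3 rat 1 or 2 (adjusted p = 0.0534 to 0.0541).

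Antigen presentation and interferon genes pointed the same way. Of 14 antigen presentation genes 4 rose (median 1.52), against 8.89% of all genes tested. Cd74, the invariant chain of MHC class II, stood at 216, 304, 80.01 and 291 CPM at day 3 and 1359.5, 1020.5, 1097 and 318 CPM at day 14 (log2 fold change 2.09 ± 0.53 (SE), adjusted p = 0.027), and the class II gene RT1-Da changed by 1.91 (log2, adjusted p = 0.04). Clec9a and Xcr1, markers of cross-presenting dendritic cells, rose by 1.45 ± 0.30 and 1.82 ± 0.45 on the log2 scale (SE). Of 19 interferon-induced genes 12 rose and none fell (0 of 19), with a median of 1.69. The antiviral sensor gene Oas1a stood at 3.63, 3.66, 2.18 and 1.46 CPM at day 3 and 14.1, 10.4, 13.7 and 11.7 CPM at day 14 (log2 fold change 2.19 ± 0.33 (SE), adjusted p = 0.00447), and the chemokine gene Cxcl9 at 0.363, 0.305, 0.218 and 0.390 CPM at day 3 and 1.84, 1.74, 3.86 and 1.84 CPM at day 14 (log2 fold change 2.83 ± 0.40 (SE), adjusted p = 0.00397). Ifit3, named because its promoter is printed, ranged over 6.54 to 13.02 CPM at day 3 and 18.7 to 427 CPM at day 14 (4.11 (log2, adjusted p = 0.0157)). Irf7, the interferon response factor, ranged over 23.1 to 59.4 CPM at day 3 and 30.5 to 243 CPM at day 14 (2.13 (log2, adjusted p = 0.0386)). The interferon count was 3 to 6 without any 1 rat other than day 14 rat 2, 15 without that rat, 3 under library totals, 5 with a replicate block and 0 without the 3 libraries that stood apart. Irf7 lost its call without any 1 rat other than day 14 rat 2 (adjusted p = 0.0522 to 0.0968). RT1-Da lost it without any 1 rat other than day 14 rat 4 (adjusted p = 0.0567 to 0.0953). Cd74 lost its call without any 1 rat other than day 3 rat 3 or day 14 rat 2 or 4 (adjusted p = 0.0536 to 0.0704). Xcr1 lost it without any 1 rat other than day 3 rat 4 or day 14 rat 2 or 3 (adjusted p = 0.051 to 0.064).

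The interferon-stimulated response element, searched on both strands as the letters GAAA, any 2 bases and GAAA again, occurred in 9 of 14 promoters of the interferon list (64.3%), in 3.77% of all promoters, in 3.06% of the tested ones, in 5.77% of those of genes that rose and in 2.16% of those of genes that fell. The 150 bases before the start of Oas1a (chr12:41330316-41330465, plus strand) and Ifit3 (chr1:241527176-241527325, plus strand) are shown with these matches in capitals. Oas1a holds an overlapping pair and Ifit3 a match in reverse.
Oas1a: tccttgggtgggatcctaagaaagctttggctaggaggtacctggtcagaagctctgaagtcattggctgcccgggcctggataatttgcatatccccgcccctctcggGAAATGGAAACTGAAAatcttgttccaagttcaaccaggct
Ifit3: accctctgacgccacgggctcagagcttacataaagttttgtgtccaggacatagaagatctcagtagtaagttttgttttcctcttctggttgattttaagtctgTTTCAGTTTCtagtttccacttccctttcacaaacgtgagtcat

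Complement genes moved in both directions. Of 16 tested, 5 rose and 2 fell (median 0.89), against 8.89% of all genes tested higher and 14.6% lower. The 2 that fell were the anaphylatoxin receptor genes C3ar1, from 83.1 to 159 to 24.02 to 30.8 CPM (log2 fold change -1.97 ± 0.23 (SE), adjusted p = 0.00232), and C5ar1. The alternative pathway gene Cfb rose, as given above. The classical pathway protease genes C1r and C1s overlapped between the days, at 89.3 to 226 CPM at day 3 and 73.2 to 199 CPM at day 14 and 26.1 to 106 CPM at day 3 and 36.3 to 192 CPM at day 14 (adjusted p = 0.692 and 0.598).

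**Figure D3:**
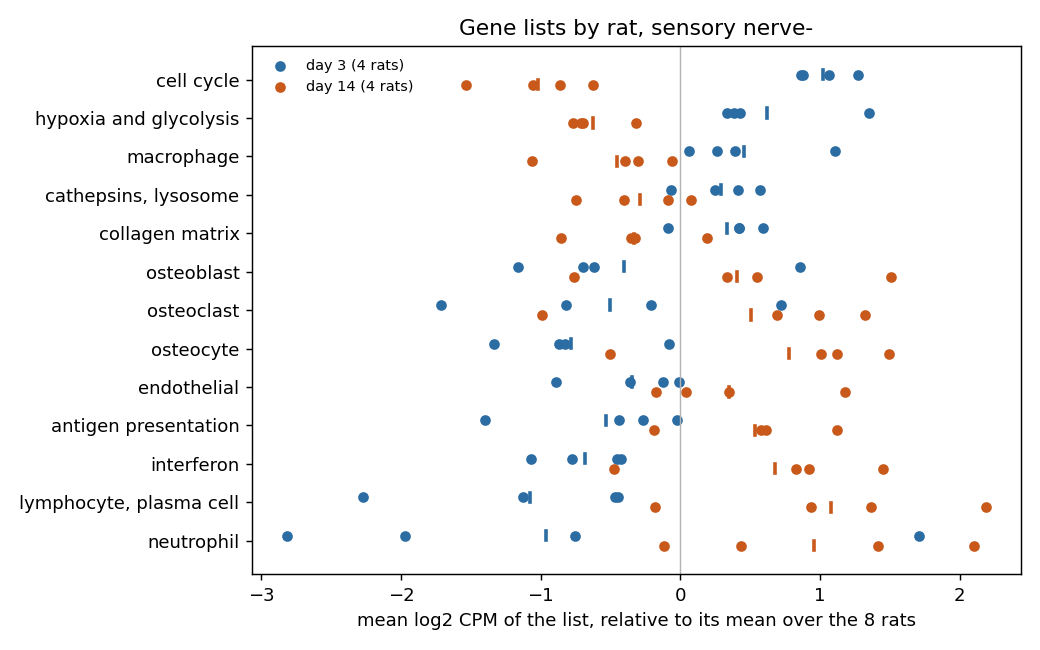
Mean log2 CPM of each of 13 gene lists in each sensory nerve- rat, relative to the list's mean over the 8 rats, with day 3 in blue, day 14 in orange and vertical bars for the day means. The days do not overlap for the cell cycle, glycolysis, macrophage and lymphocyte lists. The gap is narrow for macrophage genes (lowest day 3 rat 6.52, highest day 14 rat 6.39, before centering). It is also narrow for lymphocyte genes (highest day 3 rat 3.09, lowest day 14 rat 3.36). All other lists overlap, the interferon and antigen presentation lists among them.

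In the bone lineage few genes passed the test. Of 20 osteoblast genes 2 rose and 1 fell (median 0.73), against 8.89% of all genes tested higher and 14.6% lower. Phospho1, a phosphatase that starts mineral formation, stood at 41.5, 18.3, 12.9 and 45.8 CPM at day 3 and 122, 138, 255 and 155 CPM at day 14 (log2 fold change 2.50 ± 0.45 (SE), adjusted p = 0.00936). The member that fell was Spp1, osteopontin, which macrophages also make, from 7676 to 10339.9 to 1054 to 4664 CPM (log2 fold change -1.59 ± 0.44 (SE), adjusted p = 0.034). The lineage regulators Runx2, at 65.5 to 136 CPM at day 3 and 59.4 to 197 CPM at day 14, and Sp7, at 26.2 to 165 CPM at day 3 and 15.9 to 150.4 CPM at day 14, overlapped (adjusted p = 0.582 and 0.979), as did the matrix and mineral genes Ibsp (1.46 (log2, adjusted p = 0.25)) and Alpl (1.10 (log2, adjusted p = 0.333)). Of 8 osteocyte genes 2 rose and 1 fell: the phosphate regulator Phex stood at 1.87, 3.18, 14.2 and 6.25 CPM at day 3 and 121, 113, 23.7 and 205 CPM at day 14 (log2 fold change 4.18 ± 0.83 (SE), adjusted p = 0.0123), without overlap, and the early marker Pdpn, also made by fibroblasts, fell by 2.36 ± 0.51 (log2, SE). Dmp1 had 2.18 (log2, adjusted p = 0.132), and Sost, under the filter on low counts, had 0 to 9 counts at day 3 and 6 to 76 at day 14. Spp1 lost its call without any 1 rat other than day 14 rat 2 or 3 (adjusted p = 0.0606 to 0.0821).

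Osteoclast genes had a median of 0.78, with 3 of 20 rising and none falling (0 of 20), against 8.89% of all genes tested higher and 14.6% lower. Oscar, a co-stimulatory receptor of osteoclasts, stood at 19.8, 11.98, 7.89 and 21.8 CPM at day 3 and 50.4, 62.3, 21.8 and 112 CPM at day 14 (log2 fold change 2.01 ± 0.51 (SE), adjusted p = 0.0271). Ctsk stood at 1482, 419, 392 and 579.9 CPM at day 3 and 3364, 6644, 631 and 6087 CPM at day 14 (log2 fold change 2.54 ± 0.75 (SE), adjusted p = 0.0435), with day 14 rat 3 inside the day 3 range. Acp5, the tartrate-resistant acid phosphatase, and Mmp9, a gelatinase shared with neutrophils, missed the threshold at 2.70 (log2, adjusted p = 0.0556) and 1.74 (log2, adjusted p = 0.142). Of the 7 genes of the RANKL, osteoprotegerin and M-CSF axis, 1 changed. Tnfrsf11b, the RANKL decoy receptor osteoprotegerin, stood at 13.4, 10.3, 48.8 and 24.2 CPM at day 3 and 6.49, 8.54, 2.38 and 5.29 CPM at day 14 (log2 fold change -2.08 ± 0.57 (SE), adjusted p = 0.0331), while Tnfsf11, RANKL itself, lay at 1.83 to 2.92 CPM at day 3 and 1.78 to 4.47 CPM at day 14 (0.37 (log2, adjusted p = 0.474)). The osteoclast count was 5 without day 14 rat 3, 1 or 2 without rat 1 of either day, day 3 rat 4 or day 14 rat 2, and 0 without day 3 rat 2, day 3 rat 3, day 14 rat 4 or the 3 libraries that stood apart. Ctsk lost its call without any 1 rat other than day 3 rat 1 or day 14 rat 3 (adjusted p = 0.0706 to 0.109). Oscar lost its call without day 3 rat 1, 2 or 3 or day 14 rat 4 (adjusted p = 0.0543 to 0.075). Tnfrsf11b lost it without any 1 rat other than day 3 rat 1 or 2 or day 14 rat 2 (adjusted p = 0.0604 to 0.0826).

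Cartilage genes rose in 2 of 15 cases, against 8.89% of all genes tested, with a median of 1.11 that was -0.083 without day 14 rat 2 and 2.86 without the 3 libraries that stood apart. Col2a1, the collagen of cartilage, stood at 0.0519, 0.653, 1.70 and 0.0488 CPM at day 3 and 146, 380.1, 2.48 and 137 CPM at day 14, with rat 3 near day 3 and the other day 14 rats over 100 CPM (log2 fold change 8.03 ± 1.61 (SE), adjusted p = 0.0126). Snorc, a chondrocyte proteoglycan, rose by 1.16 ± 0.28 (log2, SE), while Sox9 and Acan had -1.81 (log2, adjusted p = 0.169) and -1.19 (log2, adjusted p = 0.243). Of 25 collagen matrix genes 6 fell and none rose (0 of 25), against 14.6% of all genes tested lower, with a median of -0.85. Fn1, fibronectin of the provisional matrix, stood at 3033, 2968, 2530.3 and 5120.4 CPM at day 3 and 955, 1018, 1149.8 and 1225 CPM at day 14 (log2 fold change -1.65 ± 0.27 (SE), adjusted p = 0.00582), and the crosslinking enzyme gene Lox fell by 1.40 ± 0.27 (log2, SE). Col1a1, Col1a2 and Col3a1 did not pass, at 0.54 (log2, adjusted p = 0.451), 0.57 (log2, adjusted p = 0.352) and -0.86 (log2, adjusted p = 0.114). Snorc lost its call without day 3 rat 1 or 2 or day 14 rat 3 or 4 (adjusted p = 0.0559 to 0.061).

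None (0) of 18 ligament fibroblast genes passed the test (median 0.09). Postn lay at 742 to 2238 CPM at day 3 and 586 to 1653 CPM at day 14, Scx at 0.523 to 8.29 CPM at day 3 and 1.62 to 5.84 CPM at day 14 and Tnmd at 1.35 to 5.42 CPM at day 3 and 0.641 to 24.8 CPM at day 14. Of 22 BMP and TGF-beta genes 2 fell, against 14.6% of all genes tested, among them the antagonist Fstl3 (-1.59 (log2, adjusted p = 0.0336)). Bmp2 and Bmp4 lay at 6.12 to 56.4 CPM at day 3 and 4.56 to 16.5 CPM at day 14 and 3.16 to 28.2 CPM at day 3 and 6.86 to 15.6 CPM at day 14. Of 20 Wnt genes 3 rose and 1 fell, against 8.89% of all genes tested higher and 14.6% lower. Tcf7, a T cell and Wnt transcription factor, rose by 1.95 ± 0.50 and the antagonist Frzb by 2.46 ± 0.73 (log2, SE). Wnt2 was at or under 3 CPM in every rat (-2.08 (log2, adjusted p = 0.166)), and Wnt1 had at most 5 counts. Frzb lost its call without any 1 rat other than day 14 rat 3 (adjusted p = 0.0529 to 0.103). Fstl3 lost it without any 1 rat other than day 3 rat 4 or day 14 rat 2 (adjusted p = 0.0525 to 0.0911). Tcf7 lost it without day 3 rat 1, 2 or 4 or day 14 rat 3 (adjusted p = 0.0552 to 0.0755).

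Among 20 endothelial genes 7 rose and 1 fell (median 0.93, or 0.40 under library totals), against 8.89% of all genes tested higher and 14.6% lower. Pecam1, the adhesion molecule of vessel walls, stood at 118, 63.5, 106 and 102 CPM at day 3 and 188, 157, 494 and 257 CPM at day 14 (log2 fold change 1.49 ± 0.38 (SE), adjusted p = 0.0271), and Angpt1, the ligand that stabilizes vessels, at 23.5, 14.77, 21.1 and 21.8 CPM at day 3 and 92.6, 33.9, 81.7 and 53.3 CPM at day 14 (log2 fold change 1.69 ± 0.32 (SE), adjusted p = 0.0105). The tip cell peptide gene Apln fell, from 24.9 to 72.9 to 6.75 to 9.91 CPM (log2 fold change -2.52 ± 0.37 (SE), adjusted p = 0.00423). The receptor gene Kdr and the junction gene Cdh5 had 0.54 (log2, adjusted p = 0.211) and 0.71 (log2, adjusted p = 0.284). Pecam1 lost its call under library totals (adjusted p = 0.0725) and without any 1 rat other than day 14 rat 1, 2 or 3 (adjusted p = 0.0524 to 0.0718).

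Genes of the nerve itself were sparse. Of 19 sensory axon genes 7 passed the filter on low counts, and 2 of them fell, against 14.6% of all genes tested. Tubb3, the neuronal tubulin, stood at 14.9, 19.7, 33.9 and 19.6 CPM at day 3 and 2.51, 2.23, 3.57 and 4.33 CPM at day 14 (log2 fold change -2.81 ± 0.33 (SE), adjusted p = 0.00251), and the neurofilament gene Nefh fell from 0.610 to 9.47 to 0.0496 to 0.400 CPM (log2 fold change -3.69 ± 1.01 (SE), adjusted p = 0.034). The heat receptor gene Trpv1 was at or under 1.29 CPM (0.86 (log2, adjusted p = 0.267)), and the sodium channel genes Scn9a and Scn10a reached 71 and 17 counts, both in day 3 rat 2. Of 15 Schwann cell and myelin genes 1 rose and 2 fell, against 8.89% of all genes tested higher and 14.6% lower. The list had a median of -1.13. Sox10, the transcription factor of the Schwann lineage, stood at 0.156, 90.7, 0.262 and 0.0976 CPM at day 3 and 3.62, 17.9, 14.7 and 5.37 CPM at day 14 (-1.13 (log2, adjusted p = 0.676)) and Mbp, the myelin basic protein gene, at 6.79, 267, 4.75 and 7.76 CPM at day 3 and 36.1, 44.7, 35.3 and 29.2 CPM at day 14 (-0.98 (log2, adjusted p = 0.594)). In both genes day 3 rat 2 alone was high, and without it the list median was 2.29 in place of -1.13. Egr2, a myelination factor that immune cells also use, fell from 16.5 to 20.4 to 3.84 to 7.77 CPM (log2 fold change -1.54 ± 0.23 (SE), adjusted p = 0.00475), while Mal, shared with T cells, rose by 2.35 ± 0.61 (log2, SE). Of 16 repair and neurotrophic genes 2 rose, against 8.89% of all genes tested. They were Gfra3 (3.01 (log2, adjusted p = 0.0204)) and Nrtn (2.29 (log2, adjusted p = 0.0361)), while the neurotrophin gene Bdnf had 2.16 (log2, adjusted p = 0.0737). Gfra3 ranged over 1.12 to 1.66 CPM at day 3 and stood at 22.4, 1.44, 10.6 and 9.61 CPM at day 14. Nrtn ranged over 0.523 to 2.07 CPM at day 3 and stood at 7.30, 1.54, 11.2 and 7.93 CPM at day 14. In both genes day 14 rat 2, the rat with the least hemoglobin, lay inside the day 3 range. The part of blood or marrow in these values was not tested. Nefh lost its call without any 1 rat other than day 3 rat 3 (adjusted p = 0.0556 to 0.0838). Mal lost it without any 1 rat other than day 3 rat 2 or day 14 rat 2 (adjusted p = 0.0509 to 0.0747). Nrtn lost its call without any 1 rat other than day 14 rat 2 (adjusted p = 0.064 to 0.0921). Gfra3 lost it without day 3 rat 1, 2 or 4 (adjusted p = 0.0526 to 0.0585).

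Some markers of neighboring tissues differed between the days. Of 20 skeletal muscle genes tested 10 rose and none fell (0 of 20), against 8.89% of all genes tested higher, with a median of 4.16. The summed level of all 22 listed genes was 45.7 to 1221 CPM at day 3 and 351 to 11672 CPM at day 14. Myoglobin, Mb, stood at 0.311, 0.479, 0.436 and 2.34 CPM at day 3 and 18.81, 80.99, 503 and 17.5 CPM at day 14 (log2 fold change 7.44 ± 1.48 (SE), adjusted p = 0.0125), and the perinatal myosin gene Myh8 at 0.726, 0.958, 1.003 and 1.61 CPM at day 3 and 9.30, 176, 348 and 27.1 CPM at day 14 (log2 fold change 7.02 ± 1.22 (SE), adjusted p = 0.00782). The glycogen phosphorylase gene Pygm, the fast myosin gene Myh1 and the creatine kinase gene Ckm rose by 4.67 ± 1.13, 4.97 ± 1.42 and 5.57 ± 1.70 (log2, SE). Day 14 rat 3 and then rat 2 were the highest. Acta1 reached 248 CPM in day 3 rat 4 and did not pass (3.53 (log2, adjusted p = 0.185)). Of 15 myogenic regulators 1 rose, Myh8, while the satellite cell genes Pax7, Myf5 and Myod1 were highest in day 3 rat 4, at 9.76, 7.71 and 34.8 CPM (Myod1 -2.15 (log2, adjusted p = 0.382)). The muscle count was 1 with a replicate block, 1 without day 3 rat 1, rat 2 or rat 3, 4 without day 14 rat 3, 6 without day 14 rat 4, and 0 without the 3 libraries that stood apart. Ckm lost its call without any 1 rat other than day 3 rat 4 (adjusted p = 0.0511 to 0.111). Myh1 lost it without any 1 rat other than day 14 rat 1, 2 or 4 (adjusted p = 0.0513 to 0.099). Pygm lost it without day 3 rat 1, 2 or 3 (adjusted p = 0.0526 to 0.0677).

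Epithelial genes were seen mainly at day 3, and tooth genes varied from rat to rat. Of 11 keratin and epithelial genes tested 5 fell, against 14.6% of all genes tested. The 20 listed genes found in the deposited data had a summed level of 61.5 to 640.1 CPM at day 3 and 19.6 to 25.9 CPM at day 14. Krt5 and Krt14, the basal keratins of stratified epithelium, stood at 46.1, 120.0, 256 and 17.3 CPM at day 3 and 0.369, 0.347, 0 and 0 CPM at day 14 and at 28.3, 82.01, 158 and 9.07 CPM at day 3 and 0.369, 0.397, 0 and 0 CPM at day 14, respectively (log2 fold changes -9.02 ± 1.20 and -8.25 ± 1.22, SE). Krt1, of the upper layers, had at most 8 counts. Of 8 enamel and dentin genes tested 3 fell. The summed level of all 14 listed genes was 53.8, 344, 11588 and 38.4 CPM at day 3. At day 14 it was 730.4, 403, 111 and 666 CPM. Apart from day 3 rat 3, 3 of the 4 day 14 rats lay above day 3. Dmp1, which osteocytes share, made up most of the day 14 sums, at 567, 368, 104 and 650 CPM. It stood at 41.2, 21.7, 284 and 24.2 CPM at day 3. The ameloblast genes Amelx and Ambn stood at 0.570, 109, 5489 and 1.51 CPM and 1.40, 92.1, 4819 and 1.22 CPM at day 3 and were at 0 in 3 of the 4 day 14 rats, and Odam ranged over 1.95 to 82.4 CPM at day 3 and 0 to 0.221 CPM at day 14. Enam reached 10109 counts in day 3 rat 3 and was not tested. Erythroid genes did not pass in any of 15 cases (median 2.69), with Hba-a1 at 8293 to 54232 CPM at day 3 and 979.7 to 422912 CPM at day 14. Of 13 salivary genes 8 were in the table, all under the filter on low counts, and of 12 fat cell genes 5 were tested and 0 passed (Fabp4 -0.67 (log2, adjusted p = 0.263), Adipoq at most 8 counts). How far these tissues contribute to other differences was not tested. Amelx lost its call without any 1 rat other than day 3 rat 1 or 4 (adjusted p = 0.0607 to 0.125). Ambn lost it without any 1 rat other than day 3 rat 1 or 4 (adjusted p = 0.0608 to 0.122).

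**Figure D4:**
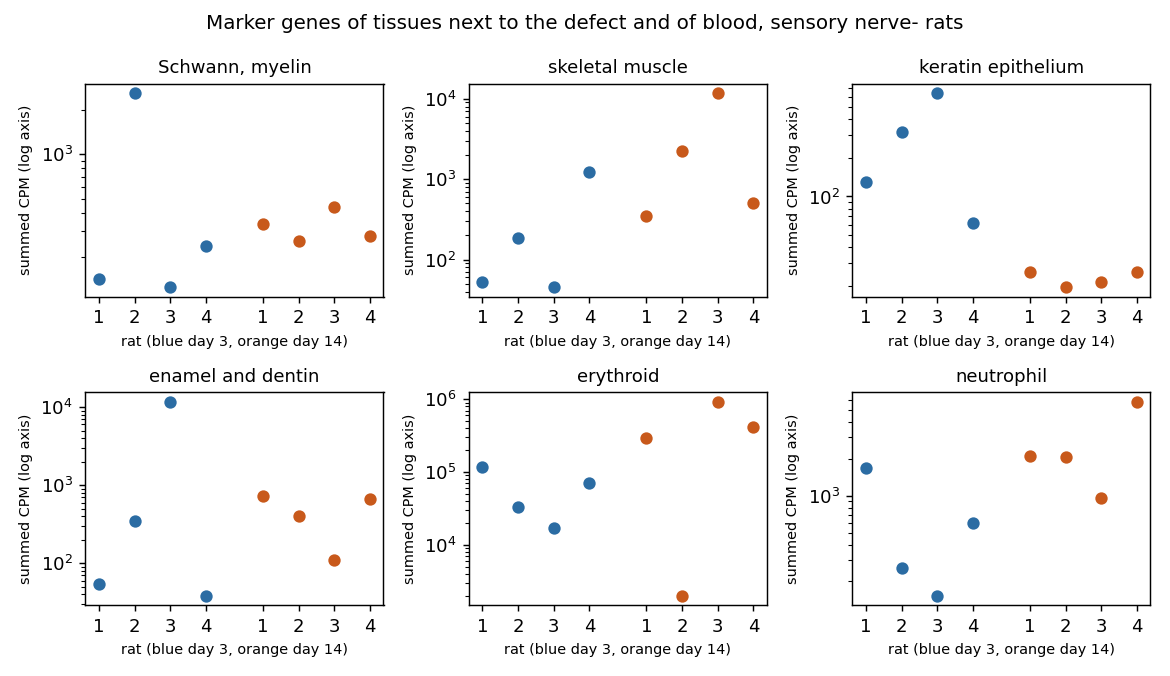
Summed CPM (log axes) of all genes of 6 marker lists found in the deposited data, tested or not, in each sensory nerve- rat. Day 3 is in blue and day 14 in orange. Day 3 rat 2 stands out for Schwann and myelin genes, day 3 rat 3 for enamel genes at 11588 CPM, day 14 rat 3 for muscle at 11672 CPM, and day 14 rat 2 for the lowest erythroid level.

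Whether the course between day 3 and day 14 differed without the nerve was tested against 7 sensory nerve+ rats, 3 at day 3 and 4 at day 14, in which 871 of 15065 genes (5.78%) passed the same test, 406 higher and 465 lower. No gene passed the test of the difference between both day effects (0 of 15547, 0%, edgeR, smallest adjusted p = 0.72), with 1033 genes (6.64%) at an unadjusted p under 0.05 and 18 called by DESeq2, 4 in the positive and 14 in the negative direction. Across the 14397 genes tested in both, which share no rats, the log2 fold changes had a Pearson correlation of 0.67 and a Spearman correlation of 0.70, given as a description since genes are not independent. Of the 3389 sensory nerve- calls among them, 3288 (97.0%) had the same sign in the sensory nerve+ rats, against 72.5% of the genes not called. The 526 genes called the same way in both made up 15.5% of the sensory nerve- calls and 63.9% of the 823 sensory nerve+ calls.

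Several groups had like medians with and without the nerve. The glycolysis list stood at -1.37 in sensory nerve- and -1.31 in sensory nerve+ rats, and the interferon list at 1.69 and 1.48. Per1 rose by 1.66 and 1.64, and Msr1 changed by -4.05 and -4.59 (log2). For the cell cycle list the medians were -2.07 and -1.02: none of the 34 passed in the sensory nerve+ rats, where all 34 had negative values, and 5 of 34 had an unadjusted p under 0.05 for the difference. The skeletal muscle medians were further apart, at 4.16 and 8.10. There 10 of 20 genes rose in the sensory nerve- rats and 17 of 20 in the sensory nerve+ rats. For the difference, 4 of the 20 had an unadjusted p under 0.05 (edgeR, smallest adjusted p = 0.72). Myogenic regulators had medians of -0.72 and 2.91. Il1b had values of 2.70 and 0.45 and Ctsk of 2.54 and 1.25, with adjusted p for the difference of 0.72 and 0.804.

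Schwann and myelin genes had a median of -1.13 in sensory nerve- and 3.68 in sensory nerve+ rats, where 10 of 15 rose, and 11 of 15 had an unadjusted p under 0.05 for the difference. The negative median rested on day 3 rat 2: it was 2.29 without that rat and 1.43 with a replicate block, on the same side of 0 as with the nerve. The 3 genes with the smallest p for a lower effect without the nerve were Prx, the periaxin of myelinating cells, Cldn19, a junction protein of the myelin sheath, and Tmprss5, a membrane protease. On the scale fitted over all 15 rats, Prx stood at 4.37, 12.5, 6.84 and 4.62 CPM at day 3 and 3.53, 9.35, 9.03 and 6.18 CPM at day 14 without the nerve. With the nerve it stood at 3.29, 4.56 and 4.77 CPM at day 3 and at 126, 11.6, 29.5 and 60.96 CPM at day 14, so that all 4 day 14 rats were above day 3. The difference was -3.76 ± 0.90 (log2, SE, unadjusted p = 0.00107, adjusted p = 0.72), and it was -8.87 ± 2.14 for Cldn19 and -4.75 ± 1.18 for Tmprss5. Without the nerve, Cldn19 stood at 0.221, 8.82, 0.266 and 0.158 CPM at day 3 and 0.0785 to 1.47 CPM at day 14. Tmprss5 stood at 1.49, 9.14, 1.87 and 1.52 CPM at day 3 and 1.57 to 6.32 CPM at day 14. In both genes rat 2 was far above the other sensory nerve- rats of day 3. In the opposite direction the genes of smallest p included the oligosaccharyltransferase gene Ost4 and the copper chaperone gene Atox1, at 0.86 and 0.86 on the log2 scale, neither past the threshold after adjustment.

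**Figure D5:**
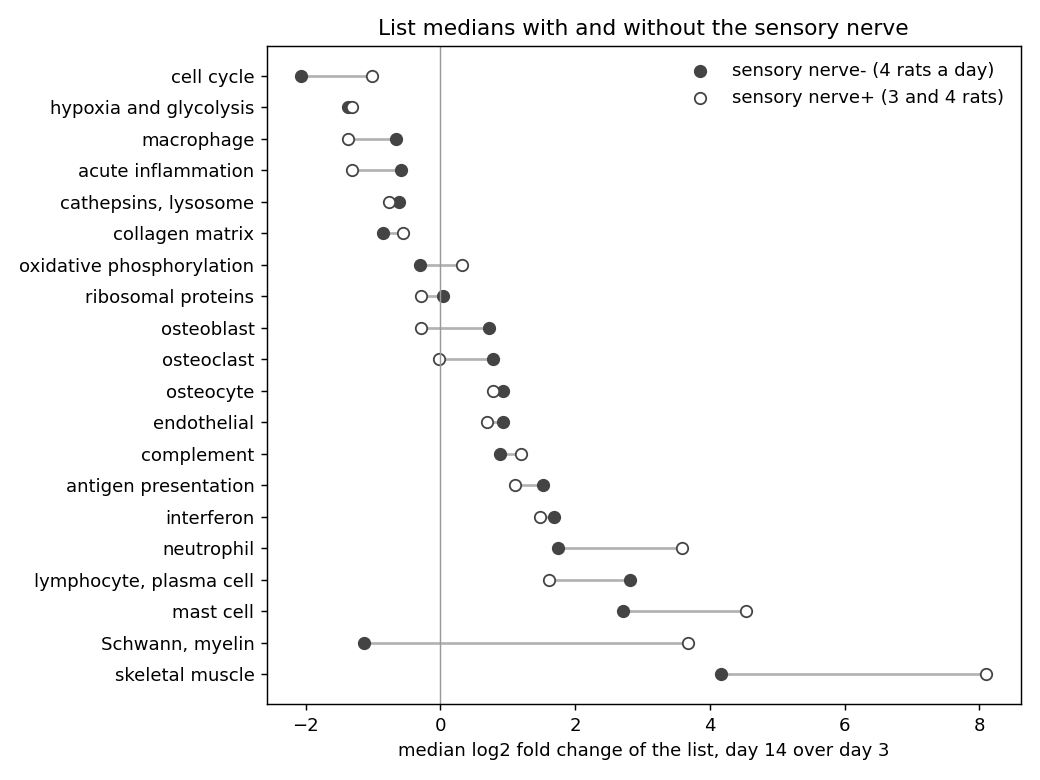
Median log2 fold change (day 14 over day 3) of 20 gene lists in sensory nerve- rats (filled, 4 rats a day) and in sensory nerve+ rats (open, 3 rats at day 3 and 4 at day 14). The Schwann and myelin medians lie on opposite sides of 0, at -1.13 and 3.68, but without day 3 rat 2 the first is 2.29, and the glycolysis medians nearly coincide.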

How the data were processed

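RNA from the healing tissue of each rat was sequenced by mRNA libraries on the DNBSEQ platform. The authors removed reads of low quality, with adapters or with many unknown bases, and aligned the rest with HISAT to the rat genome mRatBN7.2. Bowtie2 is also named in the submitters' processing notes, and the counting program and the strand setting are not given in the sources used here. The deposited table holds expected counts per gene for each rat, not scaled to depth. Of all values, zeros included, 39.2% were whole numbers, and all were rounded before testing.

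Groups came from the labels. Genes passed edgeR's filterByExpr, libraries were scaled by TMM, and day 14 was compared with day 3 by the quasi-likelihood test over the 8 sensory nerve- rats with Benjamini-Hochberg adjustment over all genes tested (edgeR 4.0.16, limma 3.58.1, R 4.3.3). The difference between both day effects was tested as a contrast over 15 rats. DESeq2 1.42.0 served as an alternative. P-values measure only the spread between these samples. The most similar rats of a day had a Spearman correlation of 0.966, and no library was a duplicate. The time of day of collection is not given in the sources used here.

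The 34 gene lists, the members and the comparison were chosen with earlier results of these data known, and 10 further lists were chosen after the values were seen. Named genes are the 6 of smallest p in each direction without overlap between days and with at least 10 CPM on the higher day, leaving out provisional symbols, the leading members of each list whatever their value, and the 2 members of each list with the smallest p among those called. For the difference test they are the 3 of smallest p in each direction. Motifs were searched in RefSeq promoter windows of GRCr8, a different build from that of the counts, so no coordinates were carried between them. Alternatives were other scalings and filters, a replicate block, a robust prior, DESeq2, fits with more rats, and each rat left out. The macrophage samples were not used here, and a few genes that these rules name are not reported here.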

Additional observations from a re-analysis of the deposited data

Results flagged for a closer look

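In each group of 4 rats, the rat at 1 end of the range was singled out when its gap to the nearest other rat took more of the whole range than Dixon's 95% critical value allows for 4 samples. Of 320 groups examined over the named genes, the lists and the hemoglobin share, 37 were singled out. The critical value assumes independent values with a normal distribution. CPM values are skewed and genes of the same library are related, so the count cannot be set against a chance share. Each value below is that of the single rat.

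Day 3 rat 2 was the highest of its day for the Schwann cell genes Mbp (267 CPM) and Sox10 (90.7 CPM) and for the Schwann and myelin list (6.26, mean log2 CPM), and the lowest for Lgals9 (23.7 CPM). Day 3 rat 3 was the highest for the enamel genes Amelx (5489 CPM) and Ambn (4819 CPM), for Dmp1 (284 CPM), which dentin cells share with osteocytes, for Sox9 (30.5 CPM) and for Bdnf (1.09 CPM). Day 3 rat 4 was the highest for the muscle genes Acta1 (248 CPM), Ckm (19.2 CPM), Mb (2.34 CPM), Cox6a2 (4.001 CPM) and Myod1 (34.8 CPM), for Arg1 (285 CPM), Slc2a1 (166 CPM) and Nefh (9.47 CPM), and for the glycolysis list (7.73, mean log2 CPM). Day 3 rat 1 was the highest for the neutrophil genes S100a8 (170.2 CPM), S100a9 (383 CPM) and Fpr2 (3.89 CPM).

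At day 14, rat 3 was the highest for the muscle genes Acta1 (2371 CPM), Ckm (863 CPM), Mb (503 CPM), Cox6a2 (52.8 CPM) and Pygm (235 CPM) and for Cxcl9 (3.86 CPM). Rat 4 was the highest for Slc2a1 (44.3 CPM), Plau (82.7 CPM), Anln (15.5 CPM) and the glycolysis list (6.07, mean log2 CPM). Rat 1 was the highest for Mki67 (57.5 CPM) and the chaperonin list (6.95, mean log2 CPM), and it alone had any Amelx (1.11 CPM) or Ambn (1.33 CPM). Rat 2 was the highest for Arg1 (9.93 CPM) and the lowest for the platelet and megakaryocyte list (1.89, mean log2 CPM). How these library differences arose was not tested.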

How the results depend on the processing

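Fewer than 5 rats a day limit the counts, and RNA from muscle, tooth, nerve and blood differs between libraries. The number of genes higher at day 14, 1284, was 2443 with DESeq2, 806 with a replicate block and 1947 with all 15 rats in 1 fit. Scaling by library totals gave 1184 genes, 308 higher and 876 lower, and moved the median of all genes to -0.42. Of the 83 named genes called in the main comparison, 21 lost their call under that scaling while keeping their direction. Cd4 and Clec9a were among them (edgeR, adjusted p = 0.0772 and 0.179). Leaving out the 3 libraries that stood apart, an alternative chosen after seeing the data, left 2 rats against 3 and 252 genes, 57 higher and 195 lower. Of these 252, 219 were among the 3396. Leaving out 1 rat in turn gave 1620 to 4346 genes, 501 to 1874 higher and 995 to 2472 lower. The lowest totals came without day 3 rat 1 (1620), day 3 rat 2 (1815), day 3 rat 4 (1949), day 14 rat 4 (2113) and day 14 rat 3 (2207), and the highest without day 14 rat 2. Without the filter on low counts 3066 genes passed, and 3355 with a stricter one.

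Same-numbered rats of both days share only a number. Their deviations from the day means correlated at 0.31, 0.11, -0.12 and -0.08 for numbers 1 to 4, and 2 of the 4 numbers matched best with themselves. The replicate block gave 2350 genes, 2141 of them among the 3396, with 34 cell cycle genes lower and 5 interferon genes higher. For the difference between both day effects, DESeq2 called 18 genes and every other setting 0, including each of 15 rats left out.

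Reversed values were few and none was called in the main comparison. With the replicate block the Schwann and myelin median was 1.43, Mbp 1.46 and Sox10 3.55. Without the 3 libraries the Schwann and myelin median was 2.05, the repair and neurotrophic median 1.35, the matrix protease median 0.19, Mbp 2.33 and Sox10 6.07. Under library totals the ribosomal protein median was -0.34. With 1 rat left out, the values ranged from -1.55 to 2.29 for the Schwann and myelin median, from -0.30 to 1.11 for the repair and neurotrophic median, from -0.083 to 1.28 for the cartilage median, from -0.47 to 0.83 for the Wnt median, from -1.32 to 2.17 for the myogenic median, from -1.37 to 2.49 for Mbp, from -1.55 to 5.84 for Sox10 and from -3.14 to 0.15 for Myod1. The reversal of the nerve genes came without day 3 rat 2, that of Myod1 and the myogenic median without day 3 rat 4, and that of the cartilage and Wnt medians without day 14 rat 2. Without the 3 libraries, 61 of the 83 named genes called in the main comparison lost their call while keeping their direction, with fewer samples to test.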

Other observations

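Protein folding and turnover genes were lower at day 14 with little spread between rats. The lists in this part were chosen after the values were seen, so their counts describe the data and support nothing further. All 8 subunit genes of the chaperonin TRiC fell (median -0.91), as did 30 of 31 proteasome genes (median -0.76) and 10 of 16 endoplasmic reticulum chaperone and secretion genes (median -0.83), against 14.6% of all genes tested. The proteasome gene Psmd1 stood at 161, 144, 139.7 and 153 CPM at day 3 and 64.5, 62.98, 71.9 and 65.2 CPM at day 14 (log2 fold change -1.18 ± 0.10 (SE), adjusted p = 0.00146), and the chaperonin gene Cct6a at 220.4, 194, 185 and 203 CPM at day 3 and 90.3, 79.5, 84.7 and 78.7 CPM at day 14 (log2 fold change -1.27 ± 0.11 (SE), adjusted p = 0.00142). The endoplasmic reticulum chaperone gene Hspa5 stood at 737, 736, 726 and 702 CPM at day 3 and 259.8, 333, 253 and 388 CPM at day 14 (log2 fold change -1.23 ± 0.17 (SE), adjusted p = 0.00386). In each gene the 4 rats of day 3 lay within a narrow range above all 4 of day 14. The proteasome count was 23 to 30 without any 1 rat, 17 under library totals and 4 without the 3 libraries that stood apart. In the sensory nerve+ rats all 31 proteasome genes had negative values, and 1 passed the test. Of 17 cholesterol synthesis genes 10 fell (median -0.69). Sqle, squalene epoxidase, stood at 34.1, 32.4, 33.7 and 27.7 CPM at day 3 and 10.5, 12.1, 10.9 and 11.4 CPM at day 14 (log2 fold change -1.51 ± 0.12 (SE), adjusted p = 0.00138).

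Cytotoxic lymphocyte and class I genes were higher at day 14. Of 12 genes on the natural killer receptor list 10 rose (median 3.37), and of 18 T cell state genes 17 rose (median 2.67). Of 16 MHC class I genes 11 rose (median 1.28), against 8.89% of all genes tested. Il2rb, a receptor subunit for interleukins 2 and 15, stood at 5.65, 3.88, 1.44 and 4.20 CPM at day 3 and 119, 14.4, 33.8 and 72.1 CPM at day 14 (log2 fold change 3.98 ± 0.71 (SE), adjusted p = 0.00879), and Cxcr3, the receptor for Cxcl9, at 0.933, 0.697, 0.741 and 1.46 CPM at day 3 and 12.2, 5.56, 4.46 and 6.25 CPM at day 14 (log2 fold change 2.88 ± 0.42 (SE), adjusted p = 0.00432). The natural killer count was 6 to 10, the T cell count 11 to 17 and the class I count 6 to 13 without any 1 rat, and they were 1, 0 and 1 without the 3 libraries that stood apart. Under library totals the class I count was 2.

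Several glucocorticoid-induced genes were higher at day 14, as Per1 was. Of 13 glucocorticoid-induced genes 6 rose (median 1.03), against 8.89% of all genes tested. Tsc22d3, which encodes the glucocorticoid-induced leucine zipper protein, stood at 56.9, 62.3, 46.1 and 58.3 CPM at day 3 and 430.2, 167, 209.6 and 284 CPM at day 14 (log2 fold change 2.29 ± 0.30 (SE), adjusted p = 0.00319), and Zbtb16 at 0.830, 1.74, 1.40 and 2.24 CPM at day 3 and 6.79, 19.6, 8.82 and 6.81 CPM at day 14 (log2 fold change 2.75 ± 0.47 (SE), adjusted p = 0.00737). In the sensory nerve+ rats Tsc22d3 changed by 1.51 and Zbtb16 by 3.35 (log2, adjusted p = 0.0365 and 0.0258). Of 17 clock genes 2 rose and 1 fell, against 8.89% of all genes tested higher and 14.6% lower. The 1 that fell was Bhlhe41, from 47.3 to 80.5 to 10.9 to 24.2 CPM (log2 fold change -1.80 ± 0.27 (SE), adjusted p = 0.0044). The hour at which tissue was taken on each day is not given in the sources used here, and its part in these values was not tested.

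Of 14 platelet and megakaryocyte genes 7 rose (median 2.93), against 8.89% of all genes tested. Gp9, a subunit of the platelet von Willebrand factor receptor, stood at 5.19, 2.26, 2.22 and 3.71 CPM at day 3 and 34.5, 0.844, 46.3 and 35 CPM at day 14 (log2 fold change 3.12 ± 0.94 (SE), adjusted p = 0.0452). Day 14 rat 2, with 0.263% hemoglobin, lay below every rat of day 3, while the other 3 day 14 rats lay above. The count was 14 without that rat and 0 or 1 without any other 1 rat. In the sensory nerve+ rats 1 of 14 rose, with a median of 0.18. For the difference between both day effects, 10 of 14 had an unadjusted p under 0.05 and none passed after adjustment (edgeR, smallest adjusted p = 0.72).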
